A study of Mus musculus with 2 samples.

Results

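Calcium pumps and sodium-calcium exchangers carry calcium out of the cytosol, and the 9 genes measured here encode the plasma membrane pumps (Atp2b1, Atp2b2, Atp2b3 and Atp2b4), the endoplasmic reticulum pumps (Atp2a2 and Atp2a3) and the sodium-calcium exchangers (Slc8a1, Slc8a2 and Slc8a3). They were found by gene symbol, a rule that uses no measured value, and all 9 were matched among 55536 annotated genes. The RNA came from the hippocampus (labelled a layer of hippocampus) of 2 adult B6CASTF1/J males aged 8 to 10 months, hybrids of C57BL/6J and CAST/EiJ, with 1 library per animal. Replicate 1 was animal 2 and replicate 2 was animal 4, both in 1 group. The labels give both the same donor entry, so an SD below is over 2 libraries taken to be of separate animals by their animal numbers. Total RNA was depleted of ribosomal RNA and sequenced with its strand kept, with ERCC spike-ins added. The labels name no comparison of conditions, so the values describe levels, transcript make-up and the difference between the libraries.

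A neuron keeps free calcium in the cytosol far below that outside the cell and inside the endoplasmic reticulum. Plasma membrane calcium ATPases (PMCA) use ATP to expel calcium and are switched on by calmodulin, which binds their cytosolic tail, while the sarco/endoplasmic reticulum calcium ATPases (SERCA) use ATP to refill the internal store. Sodium-calcium exchangers (NCX) use the inward sodium gradient to move calcium out, with lower affinity and a higher rate than the pumps, and they can run in reverse. In the hippocampus these proteins shape calcium transients in spines, dendrites and terminals. Several of them are made in alternative forms through the choice of short exons.

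Replicate 1 held 23458117 expected counts and replicate 2 held 29584307. Markers of hippocampal cells were present, with Slc17a7 (vesicular glutamate transporter of pyramidal neurons) at 621 ± 13.4 TPM, Prox1 (transcription factor of granule cells) at 33.1 ± 6.05 TPM and Slc1a2 (astrocyte glutamate transporter) at 827 ± 42.0 TPM (SD, n = 2 libraries, as for every level below). The unit TPM divides a gene's estimated reads by its length, and the sum over genes is then set equal for each library. The replicate 2 library stood apart in 9 markers of the choroid plexus, whose summed level was 1792 TPM in replicate 2 and 17.9 TPM in replicate 1. Most of the replicate 2 sum was Ttr, at 1703 TPM in replicate 2 and 8.68 TPM in replicate 1. Each of the other markers was also higher in replicate 2, such as Kl at 19.7 TPM in replicate 2 and 4.51 TPM in replicate 1. The cerebellar markers Gabra6 and Pcp2 summed to 0 TPM in replicate 2 and 0.41 TPM in replicate 1. In such bulk tissue, fewer cells of a type and less RNA per cell cannot be told apart.

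All 9 genes were detected at 1 TPM or more in both libraries. Atp2b1 had the highest deposited level, at 461 ± 28.9 TPM, followed by Atp2a2 at 317 ± 12.6 TPM, Atp2b2 at 166 ± 12.6 TPM, Slc8a1 at 147 ± 9.46 TPM and Slc8a2 at 121 ± 6.40 TPM. Atp2b3 stood at 70.9 ± 1.47 TPM and Atp2b4 at 48.6 ± 2.48 TPM. Slc8a3 at 8.09 ± 1.43 TPM and Atp2a3 at 3.08 ± 0.0919 TPM were the low members. By mean deposited TPM among 22015 nuclear protein-coding genes, Atp2b1 ranked 75 and Atp2a2 ranked 154, whereas Slc8a3 ranked 9344 and Atp2a3 ranked 11622. In complete transcripts alone, described below, Atp2b1 had 169 TPM and Atp2a2 had 314 TPM, and ranks were not computed on that measure. The median of the 13016 such genes at 1 TPM or more in both libraries was 17.4 TPM, so 7 members lay above it and Slc8a3 and Atp2a3 below.

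**Figure D1:**
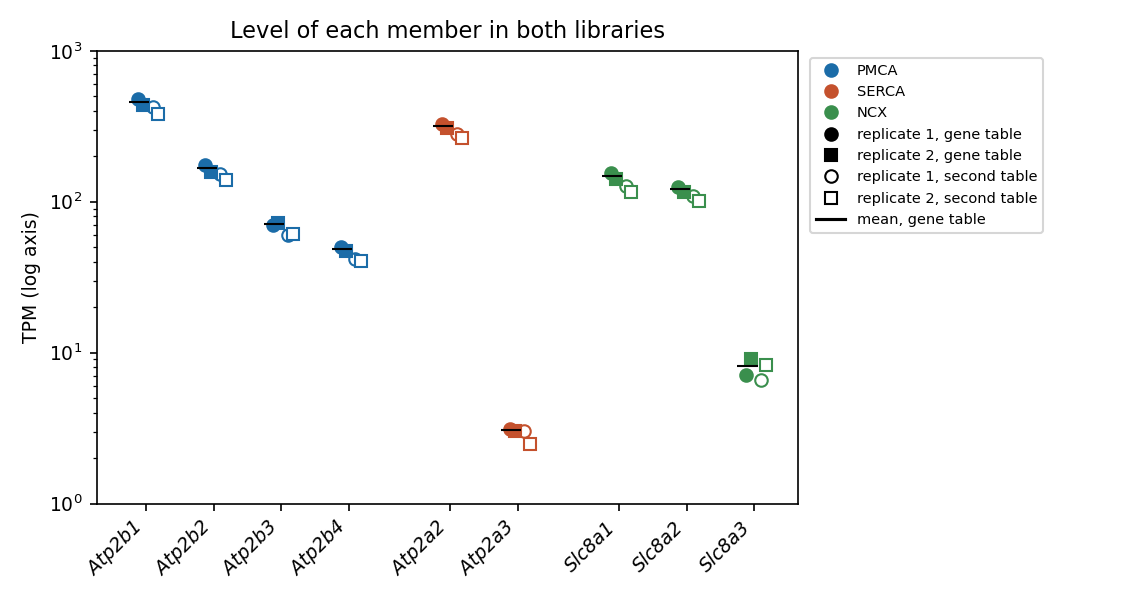
Level of each calcium pump and exchanger gene in TPM on a log axis, with 1 point per library (circles, replicate 1; squares, replicate 2). Filled points are the deposited gene table, open points the second transcript table summed per gene, and bars the mean of the filled points. Atp2b1 lies at 440 to 481 TPM and Atp2a3 at 3.01 to 3.14 TPM in the gene table, and the open points of each gene but Slc8a3 lie below the mean of its filled ones.

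The order of these levels was the same in both libraries for all 36 pairs of members, and the deposited TPM bounds of the pair did not overlap in either library. These bounds cover the estimation in 1 library and no spread between animals, and a deposited TPM can lie outside its own bounds. No neighbouring genes in the order overlapped between libraries, the closest being Atp2b2 with 175 TPM in replicate 1 and 157 TPM in replicate 2 over Slc8a1 with 154 TPM in replicate 1 and 141 TPM in replicate 2. Their ratio was 1.14 in replicate 1 and 1.12 in replicate 2, and their means differed by more than either SD. The second transcript table gave the same order for 36 of 36 pairs. The order did depend on how length entered, since 31 of 36 pairs kept it in counts per kilobase of merged exons and 34 of 36 kept it in TPM of complete transcripts alone. Atp2b1 stood below Atp2a2, and Slc8a1 below Slc8a2, on both of these measures.

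Of the TPM of the 9 genes, the PMCA genes held 55.8% in replicate 1 and 55.3% in replicate 2. The SERCA genes held 23.7% in replicate 1 and 24.1% in replicate 2, and the NCX genes 20.6% in each library. Per kilobase of merged exons the split was nearer to even between the pump families, with means of 39.7% for PMCA, 36.8% for SERCA and 23.5% for NCX.

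Atp2b1 encodes PMCA1, the widely expressed housekeeping plasma membrane pump, and lies on chr10:98914406-99026143 of mm10, plus strand. It had 23202 expected counts and 481 TPM in replicate 1, and 29344 expected counts and 440 TPM in replicate 2. It held 61.7 ± 0.36% of the PMCA TPM. Most of its TPM came from annotated partial models. The only complete coding transcript, Atp2b1-201, held 35.8% of the gene's TPM in replicate 1 and 37.6% in replicate 2, but 73.5% and 75.4% of its expected counts in the same libraries. The 6 partial coding models, whose annotated coding region lacks a start or an end, held 56.1% and 57.8% of TPM and 23.4% and 23.1% of counts. TPM weighs a read on a short model more than a read on a long one. The largest of these models were Atp2b1-210, of 1460 bases, with 27.1% of TPM in replicate 1 and 30.4% in replicate 2, and Atp2b1-208, of 1588 bases, with 18.4% and 18.8%. Atp2b1-207 held 5.87% and 5.41%. Without partial and noncoding models the level of Atp2b1 was 172 TPM in replicate 1 and 166 TPM in replicate 2.

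Atp2b2 encodes PMCA2, a fast pump enriched in neurons and needed for hearing and balance, and lies on chr6:113743831-114042613, minus strand. It had 16491 counts and 175 TPM in replicate 1, and 20508 counts and 157 TPM in replicate 2, and it held 22.3 ± 0.42% of the PMCA TPM. Atp2b3 encodes PMCA3, a pump largely restricted to neurons, on chrX:73503086-73571005, plus strand. It had 4402 counts and 69.9 TPM in replicate 1, and 6094 counts and 71.9 TPM in replicate 2. Its share of the PMCA TPM was 9.52 ± 0.74%. Atp2b4 encodes PMCA4, a pump of many tissues, on chr1:133699457-133801041, minus strand. It had 4036 counts and 50.4 TPM in replicate 1, and 4953 counts and 46.9 TPM in replicate 2, and held 6.51 ± 0.04% of the PMCA TPM. The 4 genes kept the order Atp2b1, Atp2b2, Atp2b3, Atp2b4 in TPM, in complete transcripts alone and per kilobase of merged exons.

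**Figure D2:**
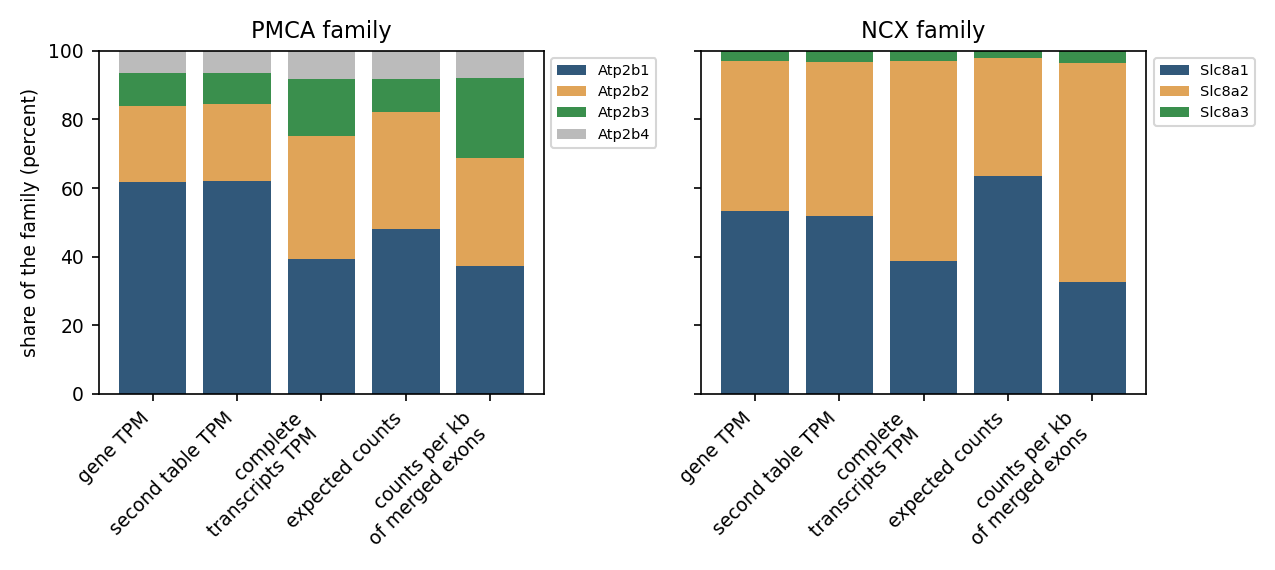
Share of each gene in its family, as the mean of 2 libraries in percent, for the PMCA genes (left) and the NCX genes (right) under 5 measures. Atp2b1 makes up 61.7% of PMCA gene TPM, 39.3% in complete transcripts alone and 37.2% per kilobase of merged exons, and Slc8a1 makes up 53.2%, 38.6% and 32.7% of NCX on the same measures.

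The tail that binds calmodulin is set in all 4 PMCA genes by an exon at splice site C. Inclusion of the whole exon gives the "a" form, with another and shorter tail, while skipping gives the "b" form. None of the 4 lengths printed below is a multiple of a codon, so these exons shift the reading frame of what follows. The 4 exons are shown because the results on pump forms rest on them. The sequences in this and the later paragraphs are those of GENCODE M21 transcripts on mm10, that is of the reference strain and not of the CAST/EiJ allele. Each is written 5′ to 3′ along the gene, and the capitals mark the 15 of the first 30 bases that are the same in all 4 genes. They lie at chr10:99019278-99019431 (plus strand), chr6:113755217-113755388 (minus), chrX:73559864-73560017 (plus) and chr1:133711642-133711822 (minus).
Atp2b1 site C exon: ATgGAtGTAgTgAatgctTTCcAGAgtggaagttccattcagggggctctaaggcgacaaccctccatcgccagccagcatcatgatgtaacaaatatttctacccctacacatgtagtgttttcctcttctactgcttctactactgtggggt
Atp2b2 site C exon: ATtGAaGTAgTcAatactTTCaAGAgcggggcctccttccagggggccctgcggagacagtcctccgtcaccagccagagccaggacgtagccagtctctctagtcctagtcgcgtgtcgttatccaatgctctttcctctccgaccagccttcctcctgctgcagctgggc
Atp2b3 site C exon: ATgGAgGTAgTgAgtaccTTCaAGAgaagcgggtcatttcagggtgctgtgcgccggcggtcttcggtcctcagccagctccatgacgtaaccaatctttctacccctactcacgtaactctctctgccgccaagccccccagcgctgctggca
Atp2b4 site C exon: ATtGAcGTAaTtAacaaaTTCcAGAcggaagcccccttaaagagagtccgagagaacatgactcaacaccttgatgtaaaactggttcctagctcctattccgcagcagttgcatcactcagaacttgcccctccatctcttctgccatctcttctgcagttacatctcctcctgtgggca
The first 30 bases of Atp2b1 matched 23 of 30 in Atp2b2, 22 of 30 in Atp2b3 and 19 of 30 in Atp2b4, and Atp2b3 and Atp2b4 matched least, at 16 of 30. The exons of Atp2b1 and Atp2b3 have the same length of 154 bases and were identical at 98 of them, or 63.6%. The exons of Atp2b2 and Atp2b4 are longer, at 172 and 181 bases. The Atp2b4 exon printed is that of Atp2b4-203. In Atp2b4-201 the exon starts with the same 181 bases and runs on, giving 186 coding bases followed directly by the stop codon.

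The 4 genes differed widely in how often the site C exon was used. Transcripts with the exon made up 89.8% in replicate 1 and 85.5% in replicate 2 of the Atp2b3 TPM annotated as one form or the other. For Atp2b4 the figures were 82.3% and 77.3%, counting both versions of the exon, and most of this was the longer version of Atp2b4-201, with 20.8 TPM in replicate 1 and 18.1 TPM in replicate 2, next to 10.3 TPM and 8.01 TPM for Atp2b4-203. For Atp2b2 they were 11.8% and 12.0%. By this count most Atp2b3 and Atp2b4 TPM carried the exon and most Atp2b2 TPM did not, and the gap between these genes was many times the difference between libraries. The second transcript table gave 88.4% and 83.9% for Atp2b3, 76.6% and 76.7% for Atp2b4, and 17.2% and 14.5% for Atp2b2.

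For Atp2b1 the value with the exon was 44.7% in replicate 1 and 46.1% in replicate 2, and 45.9% and 46.8% in the second table. This value rests on unlike models, because neither of the 2 coding models that carry the exon is complete, whereas the form without it is the complete Atp2b1-201. One of the 2 models, Atp2b1-209, also uses a site C exon shortened to 87 bases. It had 8.67 TPM in replicate 1 and 7.81 TPM in replicate 2. Unlike 154 bases, 87 bases are a multiple of a codon and do not shift the frame. The value with the exon is thus not that of the "a" form alone. The lengths are unlike too, at 1460 bases for Atp2b1-210, 1404 for Atp2b1-209 and 7130 for Atp2b1-201. Of the gene's expected counts, Atp2b1-210 held 10.8% in replicate 1 and 11.8% in replicate 2, and Atp2b1-209 held 0.687% and 0.661%. Atp2b1-201 held 73.5% and 75.4%, so the part with the exon was smaller in counts than in TPM. The balance of the Atp2b1 forms is therefore known less well than that of the other 3 genes.

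The form of Atp2b2 with the exon is Atp2b2-206, which the annotation marks for nonsense-mediated decay, a pathway that degrades messages with an early stop. It held 10.7% of the gene's TPM in replicate 1 and 11.3% in replicate 2. The forms without the exon were Atp2b2-201 with 39.4% and 46.0%, Atp2b2-203 with 27.3% and 25.3%, and Atp2b2-202 with 13.4% and 11.8%. The second table gave Atp2b2-203 less, at 17.3% and 15.8%. The noncoding Atp2b2-205 held 5.43% and 3.88%. Of the Atp2b3 transcripts, Atp2b3-203 with the exon held 83.4% and 78.3% of TPM, Atp2b3-202 without it 9.48% and 13.3%, and Atp2b3-201, which ends in a different coding exon of 90 bases, 7.17% and 8.43%, or 13.6% and 12.9% in the second table. Of the Atp2b4 transcripts with the exon, Atp2b4-201 held 41.2% and 38.6% and Atp2b4-203 held 20.5% and 17.1%. Without it, Atp2b4-207 held 7.53% and 11.3% and Atp2b4-206 held 5.72% and 5.08%. The short noncoding Atp2b4-204, of 588 bases, held 24.3% and 27.4% of the TPM of Atp2b4 but 2.09% and 2.41% of its counts.

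Atp2b2 has a second alternative stretch, splice site A, in the cytosolic loop between the second and the third membrane segment. Inclusion of all 3 exons gives the "w" form, which in hair cells and other polarised cells is sent to the apical membrane. The 3 exons are of 33, 60 and 42 bases, each a multiple of a codon, so they add residues and keep the frame. They lie at chr6:113803747-113803779, chr6:113802486-113802545 and chr6:113797110-113797151, minus strand, and are shown in full because Atp2b2-202 was the only measured transcript that carries them.
Atp2b2 site A exon 1: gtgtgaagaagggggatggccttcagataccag
Atp2b2 site A exon 2: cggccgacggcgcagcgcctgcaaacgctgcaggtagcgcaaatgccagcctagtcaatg
Atp2b2 site A exon 3: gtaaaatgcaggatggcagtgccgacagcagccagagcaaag
Transcripts with these exons made up 14.7% in replicate 1 and 12.5% in replicate 2 of the complete Atp2b2 TPM, and 19.8% and 19.6% in the second table. Among the annotated complete transcripts, those without any site A exon, the "z" form, thus held most of the Atp2b2 TPM in both tables. No annotated coding transcript carries only some of the 3 exons. Such forms were not measured, and any reads of them would fall to the annotated forms. The w exons were annotated only in Atp2b2-202, which skips the site C exon, so a w form with the "a" tail was not among the annotated transcripts.

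**Figure D3:**
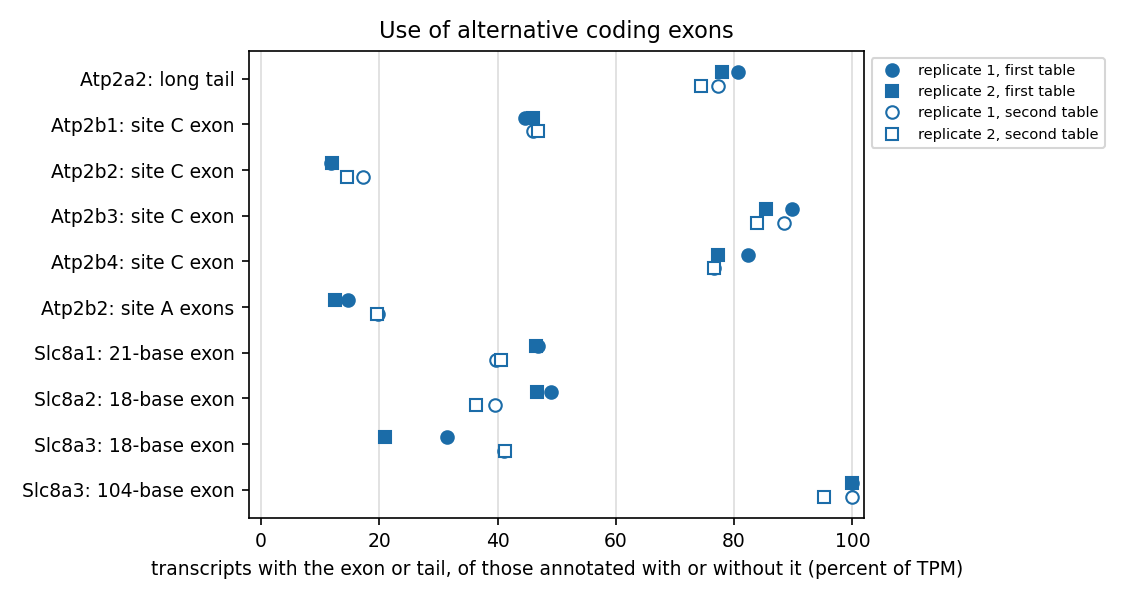
Percent of TPM from transcripts that carry each alternative exon or tail, of the transcripts annotated with or without it (circles, replicate 1; squares, replicate 2; filled, first transcript table; open, second transcript table). Atp2b3 and Atp2b4 lie above 75% for the site C exon, Atp2b1 lies at 44.7 to 46.8% and Atp2b2 at 11.8 to 17.2%. The open and filled points are farthest apart for Slc8a3's 18-base exon.

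Atp2a2 encodes SERCA2, the main pump of the endoplasmic reticulum in heart and in most other tissues, and lies on chr5:122453513-122502225, minus strand. It had 22985 counts and 326 TPM in replicate 1, and 28864 counts and 309 TPM in replicate 2. Atp2a3, on chr11:72961169-72993044, plus strand, encodes SERCA3, a pump of lower calcium affinity found in blood, endothelial and some epithelial cells. It had 152 counts and 3.14 TPM in replicate 1, and 245 counts and 3.01 TPM in replicate 2. Atp2a2 made up 99.0% of the SERCA TPM in both libraries, and its TPM was 104 times that of Atp2a3 in replicate 1 and 103 times in replicate 2. Atp2a1, the fast pump of skeletal muscle, was no member but is the only other annotated gene of the family, and it had 90 counts and 2.77 TPM in replicate 1 and 80 counts and 1.66 TPM in replicate 2.

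SERCA2 is made with 2 alternative ends. SERCA2a, the cardiac form, ends early, at 998 codons. SERCA2b, the form of non-muscle cells, has a longer tail with an added membrane segment and higher calcium affinity, and ends at 1044 codons. The 2 stretches below are the alternative last coding parts, at chr5:122457151-122457302 for the long tail and chr5:122454291-122454304 for the short one, both minus strand, with the stop codon in capitals.
Atp2a2 long tail: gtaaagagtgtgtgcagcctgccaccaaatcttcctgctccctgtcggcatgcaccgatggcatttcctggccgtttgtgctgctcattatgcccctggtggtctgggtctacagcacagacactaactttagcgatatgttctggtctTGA
Atp2a2 short tail: caatactggagTAA
Transcripts with the long tail made up 80.7% in replicate 1 and 77.9% in replicate 2 of Atp2a2 coding TPM, and 77.3% and 74.4% in the second table. The short-tailed Atp2a2-202 was thus the smaller form in both tables, at 62.6 TPM in replicate 1 and 67.0 TPM in replicate 2. The long tail is carried by Atp2a2-201 and by Atp2a2-203, which have the same coding region and differ outside it. The annotation labels Atp2a2-203 as a target of nonsense-mediated decay, although it encodes the same 1044 codons.

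Atp2a2-203 held 61.8% of the gene's TPM in replicate 1 and 59.2% in replicate 2, against 18.2% and 17.4% for Atp2a2-201. The second table divided the same reads otherwise, with 37.7% and 37.6% for Atp2a2-203 and 39.0% and 36.0% for Atp2a2-201. The division between these 2 transcripts therefore depended on the table, while the share of the long tail moved by under 4 percentage points in each library. Of the Atp2a3 transcripts, Atp2a3-201 held 72.0% of TPM in replicate 1 and 79.7% in replicate 2. Atp2a3-204 held 0% in replicate 1 and 14.8% in replicate 2, there from 37.7 counts, but under 0.02% in either library of the second table. The noncoding Atp2a3-205 held 28.0% and 5.49%, from 8.87 and 2.25 counts.

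Slc8a1 encodes NCX1, the exchanger of heart and of many other tissues, and lies on chr17:81373105-81738377, minus strand. It had 15640 counts and 154 TPM in replicate 1, and 17896 counts and 141 TPM in replicate 2. Slc8a2 encodes NCX2, an exchanger of neurons, on chr7:16129826-16161063, plus strand, with 8174 counts and 126 TPM in replicate 1, and 10171 counts and 117 TPM in replicate 2. Slc8a3 encodes NCX3, an exchanger of brain and skeletal muscle, on chr12:81197915-81333180, minus strand, with 418 counts and 7.08 TPM in replicate 1, and 673 counts and 9.10 TPM in replicate 2. Slc8a1 held 53.2 ± 0.64% of the NCX TPM, Slc8a2 43.8 ± 0.03% and Slc8a3 2.94 ± 0.67%. In complete transcripts alone Slc8a2 was ahead, at 126 TPM in replicate 1 and 117 TPM in replicate 2, with Slc8a1 at 88.6 TPM and 72.4 TPM. Slc8a3 was the lowest of the 3 on every measure tried.

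Most of the TPM of Slc8a1 was divided between a very long and a short annotated transcript. The short one, Slc8a1-205, of 2017 bases, is a partial model made of little more than the gene's large coding exon, which in mouse brain and heart is known to form a circular RNA. It held 42.5% of TPM in replicate 1 and 48.5% in replicate 2, but 11.3% and 13.9% of counts. Both tables assign reads to annotated linear transcripts, so a circular RNA was not measured, and its part in this value was not tested. The longest transcript, Slc8a1-204, of 18464 bases, held 30.6% and 27.6% of TPM and 78.0% and 75.7% of counts. Slc8a1-201 held 21.5% and 15.7% of TPM. Slc8a1-202 held 5.45% and 8.23%, but the second table gave it 0% in both libraries.

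The exchangers vary in the large cytosolic loop that senses calcium, through exons that can be exclusive or optional. In Slc8a3 the annotation holds an exclusive pair of exons, of 107 bases at chr12:81216721-81216827 and 104 bases at chr12:81214066-81214169, minus strand. They are shown because nearly all coding Slc8a3 TPM was assigned to transcripts with all or part of the second. The capitals mark the 63 bases that are identical in an alignment of the pair with gaps, which is 60.6% of the length of the 104-base exon.
Slc8a3 107-base exon: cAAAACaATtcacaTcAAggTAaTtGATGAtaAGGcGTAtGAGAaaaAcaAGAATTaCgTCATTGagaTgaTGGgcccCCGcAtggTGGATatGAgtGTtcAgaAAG
Slc8a3 104-base exon: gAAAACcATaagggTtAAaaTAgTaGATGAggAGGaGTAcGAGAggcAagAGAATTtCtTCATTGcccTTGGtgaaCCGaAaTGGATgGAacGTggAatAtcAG
Transcripts with all or part of the 104-base exon made up 100% of the coding Slc8a3 TPM in both libraries of the first table. In the second table they made up 100% in replicate 1 and 95.2% in replicate 2. They include the partial Slc8a3-204, which has only 19 coding bases there. In the first table it had 0 TPM in replicate 1 and 1.00 TPM in replicate 2. The 107-base exon is annotated only in Slc8a3-203, which was listed at 0 TPM in both libraries of the first table.

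Each exchanger also has small optional exons further along the loop. Slc8a1 has exons of 21 bases at chr17:81442203-81442223 and 15 bases at chr17:81441652-81441666, minus strand. Slc8a2 has 1 of 18 bases at chr7:16150574-16150591, plus strand, and Slc8a3 1 of 18 bases at chr12:81209454-81209471, minus strand. They are shown to make clear how short the stretches are that separate the forms, 5 to 7 codons each.
Slc8a1 21-base exon: ccctgttgttgaatgagcttg
Slc8a1 15-base exon: gaaaagagatgtatg
Slc8a2 18-base exon: ctctgctactcaaccaag
Slc8a3 18-base exon: cgctcctgttatctccag
The printed 21-base exon of Slc8a1 was in 46.9% in replicate 1 and 46.4% in replicate 2 of its complete coding TPM. The second table gave 39.7% and 40.5%. The 15-base exon was carried by the same transcripts in the first table. A further optional Slc8a1 exon, also of 21 bases, lies at chr17:81441861-81441881 and is not printed. It is annotated only in Slc8a1-203, which had 0 TPM in both libraries of the first table. In the second table it was in 1.07% in replicate 1 and 0% in replicate 2. The 18-base exon of Slc8a2 was in 49.1% and 46.6%, from Slc8a2-202, and in 39.6% and 36.3% in the second table, with Slc8a2-201 as the form without it. The 18-base exon of Slc8a3 was in 31.5% and 20.96%, and in 41.1% and 41.3% in the second table. The partial Slc8a3-204 counts among the forms without it. Forms with and without the small exon were thus present for all 3 exchangers, and the shares of Slc8a1 and Slc8a2 agreed between libraries to within 4 percentage points in each table. For these 2 genes the tables differed from each other by more than the libraries did.

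Among Slc8a3 transcripts, Slc8a3-202 held 54.1% of TPM in replicate 1 and 55.7% in replicate 2 and Slc8a3-201 held 24.9% and 17.7%. Slc8a3-205, annotated as an intron-retaining transcript, held 20.96% and 15.7%, and the partial Slc8a3-204 held 0% and 10.9%. Slc8a3 had the fewest counts of the exchangers, and its shares differed most between libraries.

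**Figure D4:**
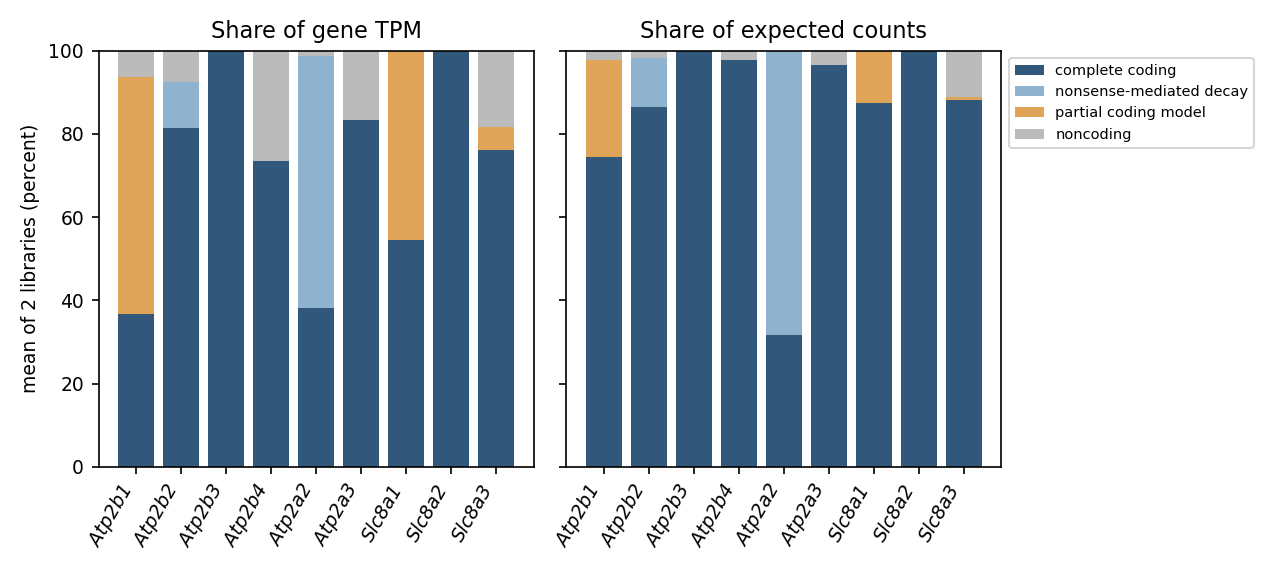
Transcript classes of each gene as the mean of 2 libraries, in percent of gene TPM (left) and of expected counts (right). Partial coding models make up 57.0% of the TPM of Atp2b1 and 45.5% of that of Slc8a1, but 23.3% and 12.6% of their counts, whereas Atp2b3 and Slc8a2 consist of complete coding transcripts on both scales.

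Over the 9 genes, 55 transcripts are annotated. Of these, 34 held 5% or more of their gene's TPM in at least 1 library by at least 1 table, and 4 were at 0 TPM in both libraries and both tables. Atp2b3 and Slc8a2 had complete coding transcripts only. Of the genes annotated inside the members, those whose exons overlap a member's exons (Gm43361, Mir6903, Gm11096 and AC122399.1) had 0 counts in both libraries, which allows up to 3 counts each.

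Between the 2 libraries, 0 of the 9 members passed edgeR's test at an adjusted p under 0.05, beside 130 of 16123 tested genes (0.806%), of which 60 were higher and 70 lower in replicate 2. At an unadjusted p under 0.05 the members again gave 0 of 9, against 778 genes or 4.83% of all tested. With 9 genes, a share near this background gives 0 called, so the count says nothing particular of the members. The log2 ratio of replicate 2 over replicate 1, in counts scaled by TMM, ran from -0.12 for Slc8a1 to 0.37 for Slc8a3 and for Atp2a3. The median was 0.01 for the members, beside -0.0013 for all tested genes, and the central 90% of all tested genes ran from -1.06 to 0.50.

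The 7 members with the most counts lay close to 0. Atp2b1 had a log2 ratio of 0.02, Atp2a2 of 0.01, Atp2b2 and Slc8a2 of 0.00, Atp2b4 of -0.02 and Atp2b3 of 0.16. Apart from scaling by the spike-ins, the settings of the test gave Atp2a2, Atp2b2, Atp2b4 and Slc8a2 values of either sign, none below -0.04 or above 0.07, and the other 5 members kept their sign. The lowest adjusted p of any member under any setting was 0.876, for Slc8a3, with edgeR. Scaling by the spike-ins moved the median of all genes to -0.23, and the members then ran from -0.35 for Slc8a1 to 0.14 for Slc8a3 and Atp2a3. With TMM scaling, 8 of 9 choroid plexus markers were higher in replicate 2 at an adjusted p under 0.05 by edgeR. The other, Otx2, was also higher, with a log2 ratio of 2.87 and an adjusted p of 0.0567 by edgeR. The median log2 ratio was 4.49 over the 9, and the markers' part in the members' values was not tested.

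Intron-retaining transcripts of the members were mostly lower in replicate 2. Of 7 such transcripts with a mean of 1 TPM or more, 6 were lower in replicate 2, with a median log2 ratio of TPM of -0.85. Over all genes 82.4% of 10053 intron-retaining transcripts were lower in replicate 2, with a median of -0.76, so the members' share was close to that of all genes. For protein-coding transcripts the figures were 17 of 27, or 63.0%, and -0.09 in the members, beside 57.7% and -0.08 over all genes. Atp2b1-211 had 2.49 TPM in replicate 2 and 6.99 TPM in replicate 1, Atp2b1-203 had 9.76 TPM and 17.6 TPM, and Atp2b2-204 had 2.84 TPM and 6.38 TPM. The exception, Atp2a2-204, had 4.17 TPM in replicate 2 and 2.58 TPM in replicate 1, but 1.35 TPM and 1.65 TPM in the second table. The 4 annotated genes that lie in the members' introns on the same strand also had fewer counts in replicate 2. Inside Atp2b2, Gm44167 had 84 in replicate 2 and 157 in replicate 1. Inside Atp2a2, Gm43359 had 60 and 117 and Gm43360 had 41 and 79. Inside Atp2b4, Gm37368 had 13 and 15, a small change. The share over all such intronic genes was not computed, so the 4 say nothing particular of the members.

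**Figure D5:**
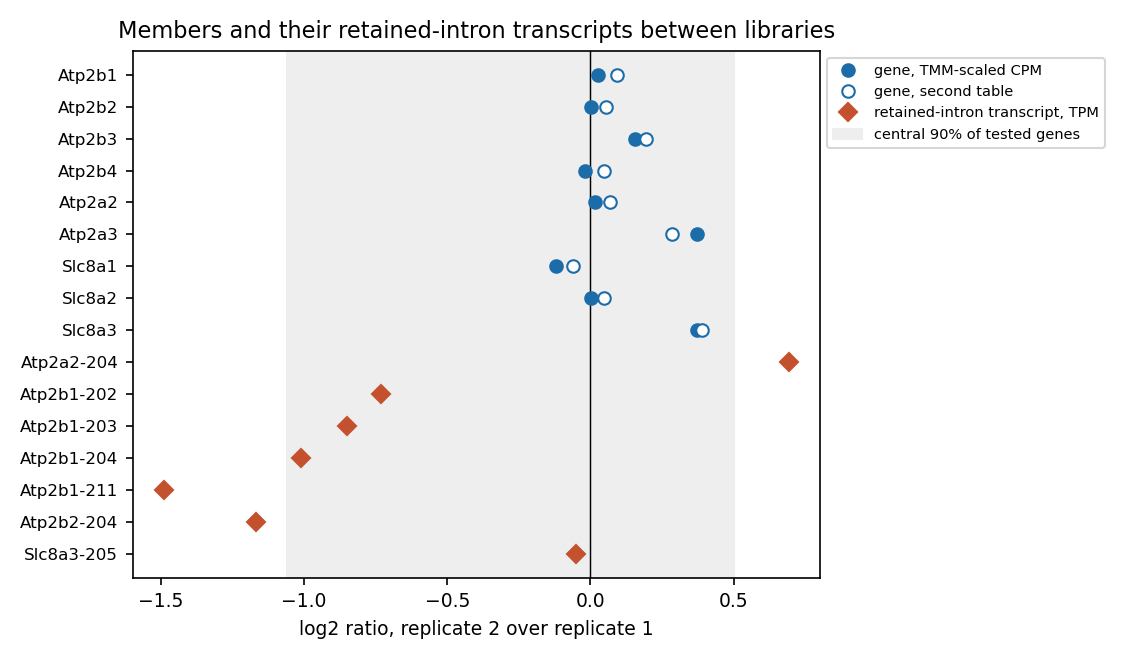
Log2 ratio of replicate 2 over replicate 1 for each member (filled circles, TMM-scaled counts; open circles, second table) and for its intron-retaining transcripts with a mean of 1 TPM or more (diamonds, TPM). The grey band spans the central 90% of all tested genes, from -1.06 to 0.50. All 9 members lie inside it, and 6 of the 7 diamonds lie below 0.

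The genes around the members were taken from lists of their regulators, partners and fellow calcium carriers, with 36 of 37 symbols matched. Of 31 that were tested between the libraries, 0 passed the edgeR threshold and 1 had an unadjusted p under 0.05. Over all tested genes the shares were 0.806% and 4.83%, so these counts say nothing particular of the lists. The median log2 ratio of the 31 was 0.06. PMCA pumps pair with neuroplastin or basigin as a subunit, and both genes were abundant. Nptn stood at 390 ± 10.8 TPM and Bsg at 281 ± 39.4 TPM, next to a sum over the 4 PMCA genes of 777 TPM in replicate 1 and 716 TPM in replicate 2. Of the small membrane proteins that inhibit SERCA, only Pln (phospholamban), Sln (sarcolipin) and Mrln (myoregulin) were listed and matched. These 3 were near the limit of detection, with Pln at 0.895 ± 0.544 TPM and Sln at 0.290 ± 0.170 TPM from 7 and 4 counts. Mrln was at 0.130 ± 0.184 TPM from 0 and 1 count, with a mean of 0.235 TPM in the second table. Other SERCA inhibitors were not examined.

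Other calcium carriers covered as wide a range as the members. Slc24a2, a potassium-dependent exchanger of neurons, was at 184 ± 17.3 TPM, above each of the 3 NCX genes in TPM, while Slc24a1, the exchanger of rod photoreceptors, was lowest of its family at 0.135 ± 0.134 TPM. Atp2c1, the Golgi calcium and manganese pump, was at 119 ± 8.83 TPM and Atp2c2 at 0.865 ± 0.290 TPM. In mitochondria, Smdt1, a small subunit of the calcium uniporter, was the highest of its list at 63.4 ± 4.26 TPM, or 103 ± 9.96 TPM in the second table, and Mcub, the inhibitory paralog of the pore, the lowest at 1.52 ± 0.0566 TPM. Slc8b1, the mitochondrial sodium-calcium exchanger, had 4.76 ± 0.799 TPM.

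Of the channels that release calcium from the store that SERCA2 fills, Itpr1 (inositol trisphosphate receptor) was highest at 157 ± 5.16 TPM and Itpr3 lowest at 2.05 ± 0.198 TPM. Ryr3, a ryanodine receptor, was the 1 gene with an unadjusted p under 0.05, named for that after its value was seen. It had 3724 counts in replicate 2 and 4831 in replicate 1, with a log2 ratio of -0.69 and an adjusted p of 0.0759 by edgeR, which ranged from 0.0454 to 0.856 over the settings tried. Among genes of store-operated entry, which senses an empty store, Stim2 was highest at 75.1 ± 2.88 TPM and Orai1 lowest at 4.92 ± 0.424 TPM. Of the calcium-binding proteins in the store, Calr (calreticulin) was highest at 241 ± 50.7 TPM and Casq1 (skeletal muscle calsequestrin) lowest at 0.285 ± 0.0636 TPM.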

How the data were processed

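RNA levels were measured in 2 libraries of 1 group. Per the labels and the deposited notes, reads were quantified on mm10 with GENCODE M21, and no program is named there. Expected counts, as deposited, estimate the reads of each gene or transcript without scaling between libraries. The TPM values are the authors' length-scaled abundances. A deposited percent is a transcript's part of the TPM of its gene, and the deposited TPM bounds carry no spread between animals. The second transcript table holds the authors' estimated counts and TPM, summed here per gene.

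The 9 members, the lists around them and the tests were chosen with earlier results of these data known. All members were named, with transcripts of 5% or more of gene TPM, the highest and lowest gene of each surrounding list, genes past the threshold, and Atp2a1, Pln, Sln, Nptn, Bsg and Slc8b1. Exon use was taken from the annotated coding exons, and exon sequences were cut from GENCODE M21 transcripts. A planned comparison of protein sequences was not made.

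Rounded expected counts were tested with edgeR 4.0.16 in R 4.3.3 over genes with CPM of 1 or more in at least 1 library, with TMM scaling, the trended dispersion and no term but an intercept. Deviance left over for a gene was compared to a chi-square distribution (1 degree of freedom), with Benjamini-Hochberg adjusted p under 0.05 as the threshold and a prior count of 2 in log2 ratios. The procedure was also run on data simulated with the common dispersion, whereas the real data were tested with the trended one. No result above rests on that run. The p-values compare 2 libraries of 1 group, and no exact test over 2 animals can reach 0.05. Alternatives were the second transcript table, each animal alone, DESeq2 or spike-in scaling, other filters, the common dispersion and, chosen after seeing the data, merged exon length and complete transcripts only.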

Additional observations from a re-analysis of the deposited data

How the results depend on the processing

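With the second transcript table, levels were 273 TPM for Atp2a2, 2.75 for Atp2a3, 403 for Atp2b1, 145 for Atp2b2, 60.2 for Atp2b3, 41.2 for Atp2b4, 121 for Slc8a1 and 104 for Slc8a2. Shares of the family were 99.0% for Atp2a2, 0.995% for Atp2a3, 6.34% for Atp2b4, 52.0% for Slc8a1 and 44.8% for Slc8a2. Exon use became 19.7% for site A and 15.9% for site C of Atp2b2. It became 40.1% for the printed 21-base exon of Slc8a1 and 38.0% for the 18-base exon of Slc8a2. For Slc8a3 it was 97.6% for all or part of the 104-base exon and 41.2% for the 18-base exon. The long tail of Atp2a2 then made up 75.9%. In complete transcripts alone, an alternative chosen after seeing the data, levels were 2.56 TPM for Atp2a3, 169 for Atp2b1, 35.8 for Atp2b4, 80.5 for Slc8a1 and 6.14 for Slc8a3. Shares were then 99.2% for Atp2a2, 0.812% for Atp2a3, 39.3% for Atp2b1, 35.8% for Atp2b2, 16.5% for Atp2b3, 8.32% for Atp2b4, 38.6% for Slc8a1 and 58.4% for Slc8a2. Per kilobase of merged exons, also chosen after seeing the data, shares were 99.1% for Atp2a2, 0.862% for Atp2a3, 37.2% for Atp2b1, 31.6% for Atp2b2, 23.3% for Atp2b3, 7.91% for Atp2b4, 32.7% for Slc8a1, 63.6% for Slc8a2 and 3.69% for Slc8a3. In expected counts, which favour long transcripts, they were 99.3% for Atp2a2, 0.749% for Atp2a3, 48.2% for Atp2b1, 34.0% for Atp2b2, 8.26% for Atp2b4, 63.4% for Slc8a1, 34.6% for Slc8a2 and 2.03% for Slc8a3. With the common dispersion 341 genes passed between libraries, none of them a member, and the cause was not tested. The other settings gave 94 to 130. No paired analysis was possible because the 2 libraries belong to 1 group. With 1 library per animal, animal, dissection and preparation cannot be told apart, and the counts of Atp2a3 and Slc8a3 limit their transcript shares most.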
